A study of Drosophila melanogaster with 12 samples.

Results

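The 10 genes dpy, pio, nyo, neo, mey, tyn, cyr, qsm, dyl and m, which encode zona pellucida (ZP) domain proteins of the apical extracellular matrix, were followed in whole flies exposed to chronic circadian misalignment (CCM). The gene dpy was chosen from these data because it was the 1 feature whose CCM effect differed between weeks in a DESeq2 fit with an interaction of schedule and week, and the other 9 were chosen as ZP domain genes. Of the 10 genes, 9 were matched by gene identifier to 1 of the 14413 counted features each, all of them features of a single gene, and tyn was not matched and is not analyzed here.

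ZP domain proteins polymerize on the outer face of epithelial cells and tie the cell surface to the cuticle or to a lumenal matrix. In Drosophila they are best known from embryos and pupae, where they shape denticles, bristles, tracheal tubes and wings. The dpy product, Dumpy, is a very large elastic protein that anchors tendon cells, trachea and wing epithelium to the matrix, and the pio product, Piopio, works with it in the trachea and at the apical surface. The qsm product, Quasimodo, is a membrane-bound ZP protein that carries light input to the circadian clock.

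Libraries came from pools of equal numbers of male and female iso31 flies, a laboratory strain, collected in the first hours after lights-on. Each of 4 groups had 3 samples: CCM flies kept for 2 weeks in cycles of 28 h with 14 h each of light and dark, control flies kept for 2 weeks in cycles of 24 h with 12 h each of light and dark, and CCM and control flies kept on the same schedules for 3 weeks. All flies lived on sucrose and agar in activity monitors, and the samples were biological replicates. The groups differed in schedule and in weeks of exposure. Totals ranged between 17842804 and 23687266 counts (median 21231935), at which 3 counts equal 0.168 CPM (counts per 1000000) in the smallest library and 0.127 CPM in the largest. The 3 week 3 CCM totals (21506910 to 21925648) lay above the 3 week 3 control totals (17842804 to 19162218). Markers of fat body, muscle, neurons, photoreceptors and male accessory gland were detected in every sample. Of the follicle cell genes, Vm26Ab had 0 to 7 counts, psd had 7 to 33 and dec-1 was not matched. In whole-fly RNA, fewer cells of a type and less RNA per cell cannot be told apart.

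Of the 9 counted genes, 3 carried most of the signal. pio had 768 to 1292 counts per sample, qsm 490 to 901 and dpy 51 to 435. m had 12 to 31 counts, neo 6 to 28, dyl 2 to 24, mey 3 to 13, cyr 0 to 8 and nyo 0 to 4. The filter on low counts kept dpy, pio, qsm, neo and m in every fit and mey in the fits of week 3 and of all 12 samples, while nyo, cyr and dyl did not pass it in these fits and were fitted in DESeq2 and in edgeR without the filter. The levels of these last 3 genes are at or near 3 counts in many samples.

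The positions below are from the Ensembl annotation of the dm6 assembly, the build the files use. dpy (FBgn0053196) lies on the minus strand of chromosome 2L, from base 4477462 to base 4614300. Its exons together cover 71820 bases, which made it the longest of 11658 tested features with a known length, the next longest having 69810 bases. The other counted members were short by comparison, with 2059 exonic bases in qsm (FBgn0028622, chromosome 2R) and 3600 in pio (FBgn0020521, chromosome 2R). neo (FBgn0039704), mey (FBgn0039851) and nyo (FBgn0039852) lie on chromosome 3R with 3005, 3385 and 3812 exonic bases. dyl (FBgn0066365) has 3139 exonic bases on chromosome 3L, and cyr (FBgn0030001) and m (FBgn0002577) on the X chromosome have 2884 and 3405.

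Levels were compared between genes only per kilobase of exon. Per kilobase, pio averaged 14.4 CPM in week 2 CCM flies, 14.8 in week 2 controls, 12.4 in week 3 CCM flies and 13.4 in week 3 controls. qsm averaged 11.9, 13.9, 18.8 and 20.4 CPM per kilobase in the same order of groups. The level of dpy per kilobase was far lower, at 0.215 CPM in week 2 CCM flies, 0.145 in week 2 controls, 0.0422 in week 3 CCM flies and 0.0928 in week 3 controls. m (0.255 to 0.323 over the 4 groups) and neo (0.254 to 0.318) were above dpy on this scale in every group.

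The level of dpy was highest in CCM flies at week 2 and lowest in CCM flies at week 3, with both control groups between them. Its CPM values, scaled by the TMM factors of all 12 samples, were 11.5, 15.8 and 19.0 in week 2 CCM flies, against 12.3, 9.12 and 9.82 in week 2 controls. The counts behind these values were 245, 401 and 435 in CCM flies and 296, 168 and 238 in controls. The groups overlapped at week 2, since the lowest CCM sample lay below the highest control sample, while 13.4% of tested features did not overlap at that week. At week 3 dpy had 3.30, 2.94 and 2.85 CPM in CCM flies (67, 63 and 51 counts), against 7.91, 6.0 and 6.07 CPM in controls (143, 113 and 99 counts). All 3 week 3 CCM samples lay below all 3 controls, and 17.5% of tested features did not overlap between schedules at that week, in either direction.

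**Figure D1:**
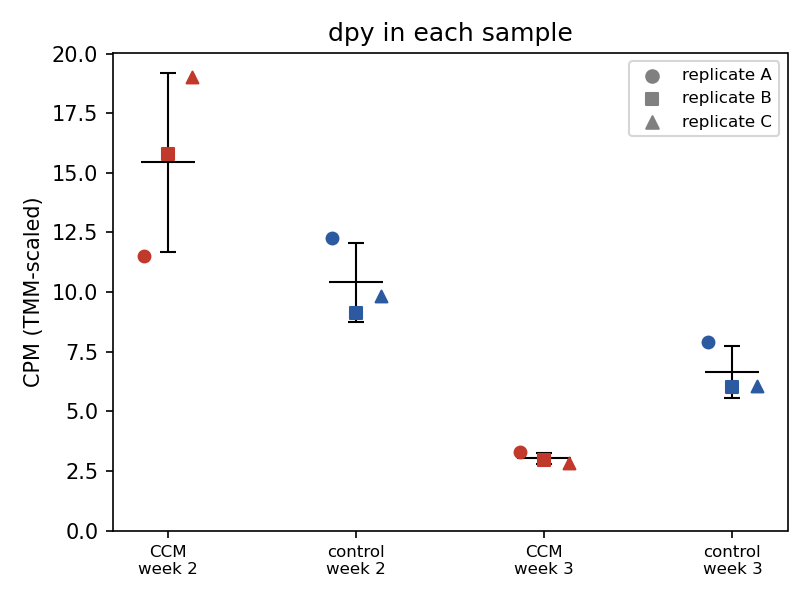
Level of dpy in CPM (TMM-scaled) in each of the 12 samples, by group. Points are samples, shaped by replicate letter, and bars show the mean and SD of 3 samples; the means are 15.4 and 10.4 CPM in CCM and control flies at week 2, and 3.03 and 6.66 CPM in CCM and control flies at week 3.

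Ordered by group mean, dpy was at 15.4 ± 3.77 CPM in week 2 CCM flies, 10.4 ± 1.66 in week 2 controls, 6.66 ± 1.08 in week 3 controls and 3.03 ± 0.239 in week 3 CCM flies (SD, n = 3 each). The first 2 groups in this order overlapped, and the others did not overlap with their neighbors. Each of these levels enters the interaction that chose the gene, so the contrasts between pairs of groups are given for dpy as descriptions without a test. The log2 fold change (log2FC) of CCM against control was 0.57 ± 0.25 at week 2 and −1.14 ± 0.15 at week 3 (± standard error over replicates). The difference of these effects, the interaction, was −1.70 ± 0.29 in edgeR and −1.73 ± 0.33 in the DESeq2 fit used for the choice. In that fit dpy had an adjusted p of 0.0019, inside the threshold of 0.1, and the next feature, Alr, a sulfhydryl oxidase gene, lay just outside with an adjusted p of 0.12. In edgeR's quasi-likelihood test no feature was called for the interaction.

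Leaving out each sample in turn kept the sign of every dpy contrast. This is a description and no test, since the same samples chose the gene. The log2FC of CCM against control ranged between 0.40 and 0.74 at week 2 and between −1.21 and −1.0 at week 3, and the interaction between −1.88 and −1.53.

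Exonic length moved with these contrasts across all features tested. At week 3, the log2FC of CCM against control correlated with log2 exonic length across genes (r = −0.47), against −0.06 at week 2. The 50 longest features other than dpy (15094 to 69810 exonic bases) had a median log2FC of −0.42 at week 3, where 48 of 50 were negative and 1 was below dpy. At week 2 (15579 to 69810 bases) their median was 0.18, 4 of 50 were negative, and dpy lay above all of them. For the interaction their median was −0.63, with 49 of 50 negative and 1 below dpy. The median over all features tested was within 0.03 of 0 in each of these comparisons. In these contrasts dpy thus had the sign of the median of the other long genes. It lay beyond their range at week 2, and toward its far end at week 3 and for the interaction. For week 3 against week 2, 28 of 50 lay below dpy in control flies (median −0.69) and 3 of 50 in CCM flies (median −1.47).

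Between groups, dpy and the other long genes deviated from their 12-sample means in the same direction. Within groups, the order of the samples was the same in week 2 CCM flies and differed in the other groups. The median deviation of the 50 longest features was 0.19, 0.77 and 0.99 on the log2 scale in week 2 CCM flies, where dpy deviated by 0.62, 1.07 and 1.34. In week 2 controls the long genes deviated by 0.31, −0.08 and 0.97, and dpy by 0.71, 0.29 and 0.39. In week 3 CCM flies the long genes deviated by −0.76, −0.75 and −0.66, and dpy by −1.17, −1.34 and −1.39. In week 3 controls the long genes deviated by −0.18, −0.31 and −0.39, and dpy by 0.08, −0.32 and −0.30. Over the 12 samples the correlation of the 2 deviations was r = 0.90, given as a description, since the points share libraries and fall into groups. Within week 3 CCM flies the sample with the highest value for the long genes had the lowest for dpy. Within week 2 controls the sample highest for the long genes was not the highest for dpy, and within week 3 controls replicate A was highest for both.

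**Figure D2:**
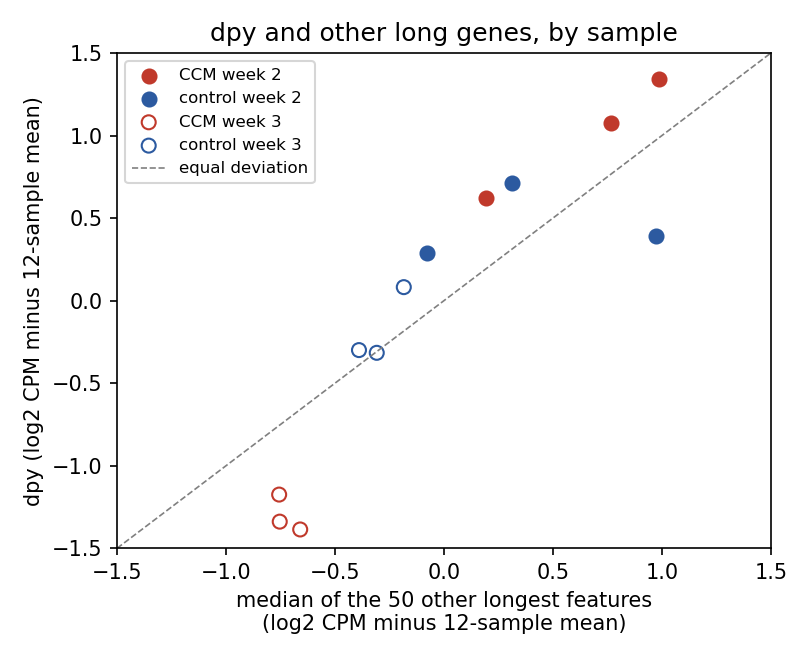
Deviation of dpy from its 12-sample mean (y axis, log2 CPM) against the median deviation of the 50 other longest features (x axis, log2 CPM) in each sample. Filled and open points are weeks 2 and 3, red is CCM and blue is control, and the dashed line marks equal deviations; the 3 week 3 CCM samples lie at the lower left, below the line, and the correlation over 12 samples is 0.90.

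When each sample's dependence on exonic length was taken out with an offset (a smooth curve of deviation on log2 length), the contrasts of dpy shrank. With these offsets its log2FC of CCM against control was −0.0018 ± 0.52 at week 2 and −0.39 ± 0.14 at week 3, and the interaction was −0.25 ± 0.58. Few genes set the far end of the length curve where dpy lies, so the offsets were also computed, as an alternative chosen after seeing the data, with lengths over 15000 bases set to 15000. The log2FC of dpy was then 0.28 ± 0.33 at week 2 and −0.67 ± 0.11 at week 3, and the interaction was −0.88 ± 0.37.

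**Figure D3:**
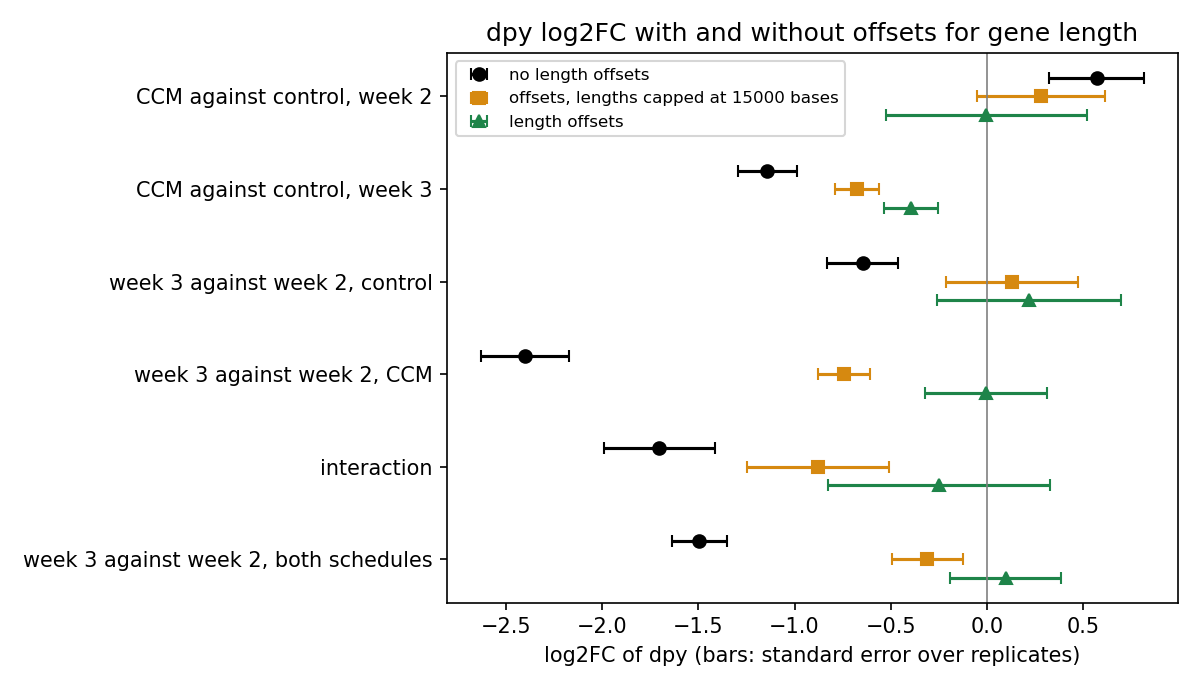
log2FC of dpy in the 6 contrasts (x axis; bars are the standard error over replicates) without length offsets, with offsets in which lengths over 15000 bases were set to 15000, and with offsets over all lengths. Without offsets the interaction is −1.70, and with them it is −0.88 and −0.25.

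Among the members other than dpy, which is given no test here, none was called for CCM against control. At week 2, 0 of the 4 other members tested were called at an adjusted p under 0.1 in edgeR's quasi-likelihood test, 0 had an unadjusted p under 0.05, and DESeq2 called 0 of 8. Over all 12356 features tested, edgeR called 0, or 0%, with 700 at an unadjusted p under 0.05, and DESeq2 called 7 of 14273 (0.0490%). At week 3, 0 of 5 other members were called by edgeR, 0 had an unadjusted p under 0.05, and DESeq2 called 0 of 8 fitted, of which 2 (pio and qsm) had an adjusted p after its own filter. The background at week 3 was 2 of 12208 features (0.0164%) in edgeR, 1140 (9.34%) in the fit paired by replicate letter and 353 of 14184 (2.49%) in DESeq2, and the paired fit called 0 of the 5 members.

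pio, the partner of dpy, was not called for CCM against control at either week. It was at 54.7, 48.1 and 52.1 CPM in week 2 CCM flies, against 53.6, 53.5 and 53.1 in week 2 controls. At week 3 it was at 44.2, 45.6 and 44.1 CPM in CCM flies, against 51.5, 45.9 and 47.1 in controls. The week 2 groups overlapped, while at week 3 all CCM samples lay below all controls. The log2FC was −0.04 ± 0.06 at week 2 and −0.12 ± 0.06 at week 3, with adjusted p of 0.92 and 0.65 in edgeR's quasi-likelihood test.

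qsm, the light input gene, was at 28.3, 23.6 and 21.4 CPM in week 2 CCM flies, against 32, 29.4 and 24.8 in week 2 controls. At week 3 it was at 37.8, 42.1 and 36.2 CPM in CCM flies, against 43.4, 44.8 and 37.8 in controls. Groups overlapped at both weeks. The log2FC of CCM against control was −0.23 at week 2 and −0.12 at week 3, with adjusted p of 0.71 and 0.72 in edgeR's quasi-likelihood test, and it was not called. At week 3 qsm was lower in CCM flies in each of the 3 pairs of same-lettered samples. The paired edgeR fit gave a log2FC of −0.12 and an adjusted p of 0.36.

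The genes with few counts gave wide errors. m, which is needed for flat wing cells, had 24, 31 and 19 counts in week 2 CCM flies against 16, 28 and 27 in week 2 controls, and 13, 23 and 16 in week 3 CCM flies against 21, 19 and 12 in week 3 controls. neo, which shapes embryonic denticles, had 12, 26 and 16 counts in week 2 CCM flies against 21, 17 and 26 in week 2 controls, and 15, 28 and 13 in week 3 CCM flies against 15, 23 and 6 in week 3 controls. Groups of both genes overlapped at both weeks. Their log2FC of CCM against control lay between −0.31 and 0.18, with standard errors of 0.25 to 0.57. mey, tested at week 3 alone, had a log2FC of 0.37 ± 0.68.

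dyl, a ZP gene of bristle and wing hair cuticle, did not pass the filter. At week 3 it had 4, 5 and 3 counts in CCM flies, against 2, 3 and 2 in controls, which overlap, and its CPM values were separated only by the library scaling. At week 2 it had 6, 24 and 7 counts in CCM flies, against 11, 7 and 4 in controls. cyr had 1, 3 and 0 counts in week 2 CCM flies, against 8, 6 and 1 in week 2 controls, and 2, 4 and 7 in week 3 CCM flies, against 1, 7 and 4 in week 3 controls. nyo had 4 counts in all in week 2 CCM flies and 5 in week 2 controls, and 1 and 2 in week 3 CCM and control flies. At these counts a difference between schedules was not detectable.

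**Figure D4:**
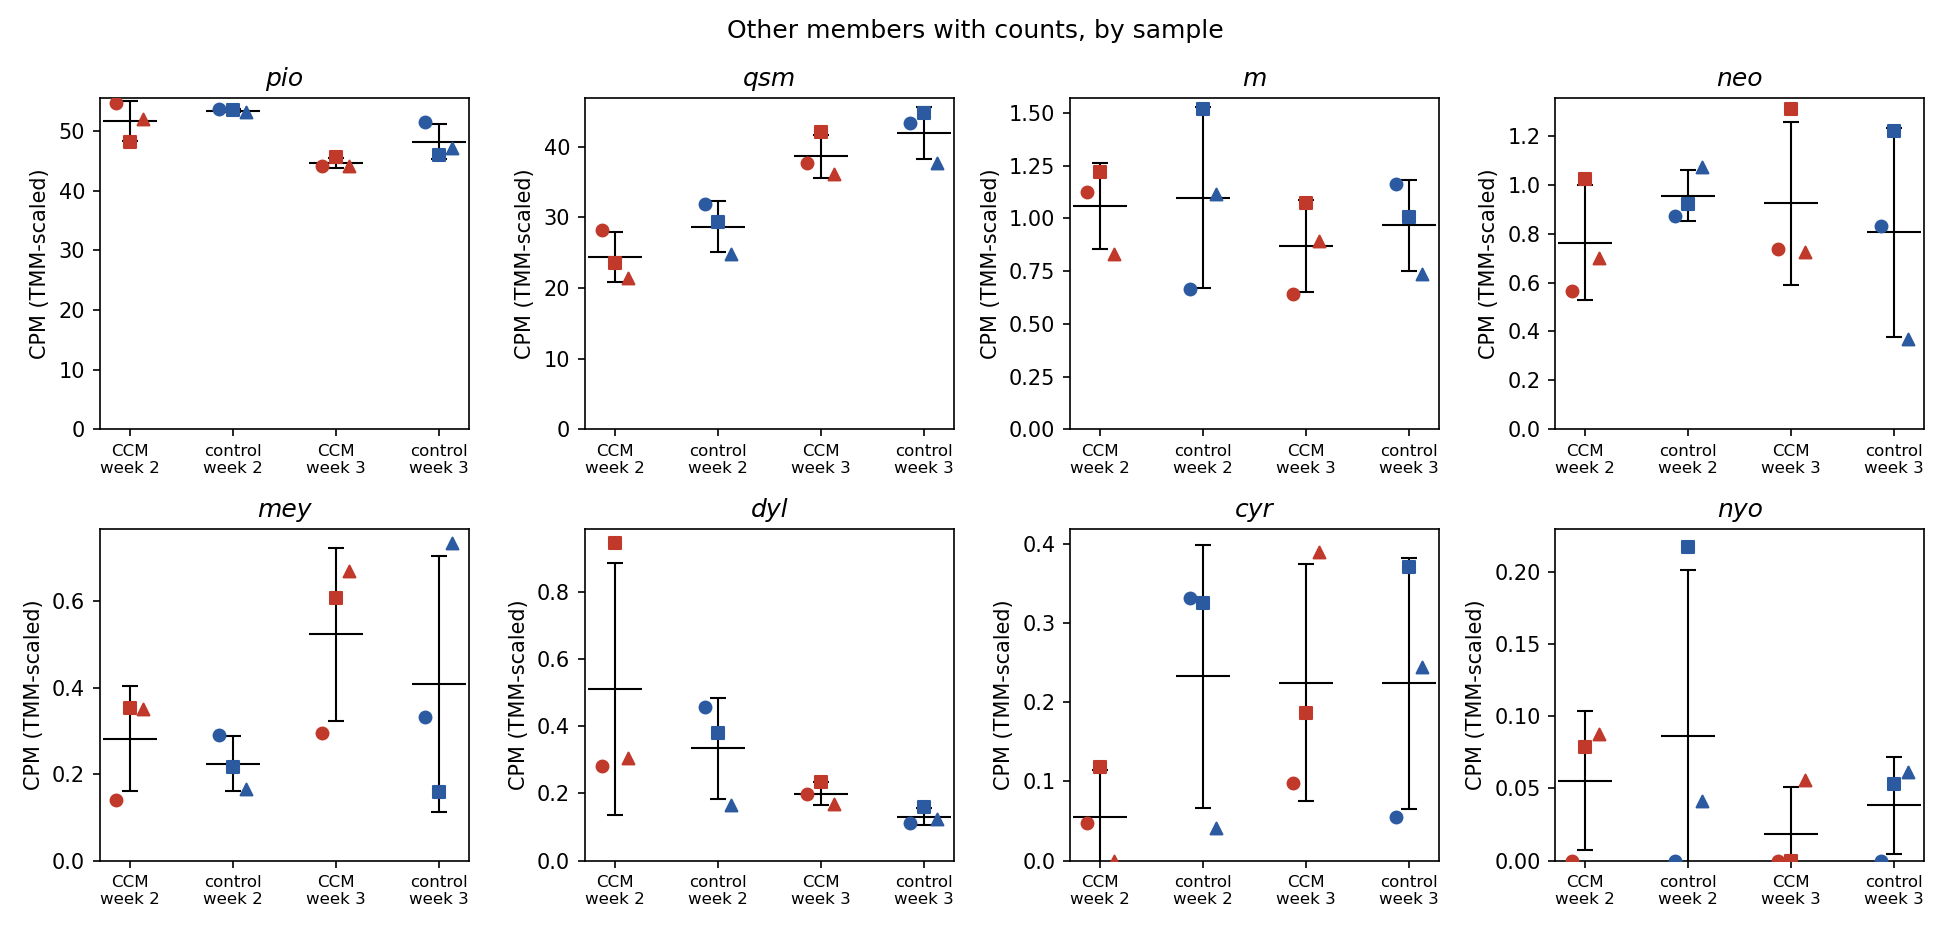
Levels of the 8 other counted members in CPM (TMM-scaled, y axes differ between panels and start at 0) in each of the 12 samples. Points are samples shaped by replicate letter, with bars for the mean and SD of 3 samples; pio and qsm lie above 20 CPM in every sample, and dyl, cyr, mey and nyo below 1 CPM.

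The interaction of schedule and week gave no call among the other members. edgeR's quasi-likelihood test called 0 of 5 and found 0 at an unadjusted p under 0.05, DESeq2 called 0 of 8, and over all features edgeR called 0 of 12530 (0%), with 570 at an unadjusted p under 0.05, while DESeq2 called 1 of 14408 (0.00694%), dpy itself. The interaction was −0.06 in pio (adjusted p = 0.97) and 0.11 in qsm (adjusted p = 0.96), and it ranged between −0.13 and 0.50 in m, mey and neo, all in edgeR's quasi-likelihood test.

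Week 3 against week 2 gave calls among the members. In CCM flies, week 3 against week 2, 2 of the 4 other members tested were called, qsm higher and pio lower, while 56.0% of 12348 features were called, 26.4% higher and 29.6% lower. In control flies 1 of 4 was called, qsm higher, while 31.3% of 12200 features were called, 14.0% of the 12200 in the higher direction. Averaged over schedules, 4 of the 6 members tested were called, qsm and mey higher and dpy and pio lower in edgeR, while 66.5% of 12530 features were called, 33.8% higher and 32.7% lower. Of these 4, dpy was chosen from the same samples, and mey passed the filter only through week 3 samples, where it is high. The count of 4 is thus a description. DESeq2 and edgeR without the filter each also called 4, with dyl lower and mey not called, against 58.7% of 14408 and 57.6% of 14413 features. With length offsets the members called were qsm in control flies, qsm in CCM flies, and qsm and mey in the average, against 26.9%, 50.1% and 61.1% of features in the same comparisons. The CPM values of dpy, pio, qsm and dyl (the last at few counts) did not overlap between weeks on either schedule, which held for 62.6% of tested features in CCM flies and 43.8% in control flies. With 6 members tested the shares called are near the background, and each gene is described by its own values.

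dpy fell between week 2 and week 3 when both schedules were averaged, by 1.5 ± 0.14 on the log2 scale (adjusted p = 5.53e-05, edgeR's quasi-likelihood test on all 12 samples). In its weights this contrast is orthogonal to the interaction that chose the gene. However, the counts of dpy (181 to 1081 per group) and their spread differed between groups, and both contrasts share 1 estimate of spread. The adjusted p is thus not free of the choice and is given as a description. All 6 week 3 samples (2.85 to 7.91 CPM) lay below all 6 week 2 samples (9.12 to 19.0 CPM). Within schedules, as descriptions, the log2FC of week 3 against week 2 was −2.40 ± 0.23 in CCM flies and −0.65 ± 0.18 in control flies. The 50 other longest features had a median of −1.09 in the average of both schedules, with 49 of 50 negative and 8 below dpy. With length offsets the averaged log2FC of dpy was 0.10 ± 0.29 (adjusted p = 0.76), and with lengths over 15000 bases set to 15000 it was −0.31 ± 0.18 (adjusted p = 0.15), so the call was lost in both edgeR fits.

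Markers of several tissues moved with week as well, in CPM of library totals without TMM scaling. The summed level of the 3 yolk protein genes, markers of female fat body and follicle cells, was 1491 to 3414 CPM in week 3 CCM flies, against 6679 to 9432 in week 2 CCM flies, and 2010 to 2804 in week 3 controls, against 5998 to 7156 in week 2 controls. The 3 neuronal markers summed to 63.4 to 82.0 CPM in week 3 CCM flies, against 119 to 173 in week 2 CCM flies, but overlapped in controls, at 78.7 to 116 CPM at week 3 against 102 to 157 at week 2. The 2 photoreceptor markers summed to 1292 to 1896 CPM in week 3 controls, against 2825 to 3455 in week 2 controls. In CCM flies they overlapped, at 879 to 2495 CPM at week 3 against 1992 to 3492 at week 2. The 3 muscle markers overlapped, at 995 to 1244 CPM in week 3 CCM flies, against 954 to 1229 in week 2 CCM flies. They also overlapped in controls, at 955 to 1438 CPM at week 3 against 1081 to 1169 at week 2. The 3 accessory gland markers differed by schedule at week 2, at 97.9 to 157 CPM in CCM flies against 61.9 to 78.6 in controls. At week 3 they were lower in CCM flies, at 59.1 to 88.6 CPM, while in controls the weeks overlapped (43.6 to 79.9 CPM at week 3). The part of these shifts in tissue markers in the values of dpy, pio and qsm was not tested.

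qsm was higher at week 3 on both schedules. The values given above place its 3 week 3 samples above its 3 week 2 samples in CCM flies and in control flies. The log2FC was 0.61 ± 0.14 in CCM flies (adjusted p = 0.0069) and 0.55 ± 0.13 in control flies (adjusted p = 0.043), and 0.61 ± 0.09 in the average of both schedules (adjusted p = 0.00031), all in edgeR's quasi-likelihood test. With length offsets these values were 0.60, 0.53 and 0.57, and each remained called. In control flies the call was lost without week 3 replicate A (adjusted p = 0.12) or B (adjusted p = 0.11), with log2FC of 0.52 and 0.50.

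pio fell by week 3 in CCM flies and in the average of both schedules, but not with length offsets. Its log2FC was −0.27 ± 0.05 in CCM flies (adjusted p = 0.029), −0.15 ± 0.05 in control flies (adjusted p = 0.35) and −0.18 ± 0.04 in the average of both (adjusted p = 0.022, edgeR's quasi-likelihood test for all 3). With length offsets the sign turned, to 0.09 in CCM flies (adjusted p = 0.43), 0.08 in control flies (adjusted p = 0.64) and 0.09 in the average (adjusted p = 0.27). In CCM flies the call was also lost without week 3 replicate A, B or C, with adjusted p of 0.17, 0.11 and 0.16.

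mey, which lies near nyo on chromosome 3R and acts in embryonic denticles, had 6, 13 and 12 counts in week 3 CCM flies, against 3, 9 and 8 in week 2 CCM flies, and 6, 3 and 12 counts in week 3 controls, against 7, 4 and 4 in week 2 controls. The weeks overlapped on both schedules. In the fit of all 12 samples mey passed the filter through its samples with 12 or 13 counts, all of week 3. Since the filter kept it for high week 3 values, its call as higher at week 3 is a description. The averaged log2FC was 0.84 ± 0.41 (adjusted p = 0.091, edgeR's quasi-likelihood test), and it was 1.07 (adjusted p = 0.043) with length offsets. The adjusted p was 0.13 in DESeq2, and in edgeR the call held in 2 of the 12 fits that left out 1 sample, with log2FC of 0.49 to 1.03. neo (0.02 ± 0.31) and m (−0.22 ± 0.24) were not called in the averaged contrast, with adjusted p of 0.95 and 0.45 in edgeR.

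**Figure D5:**
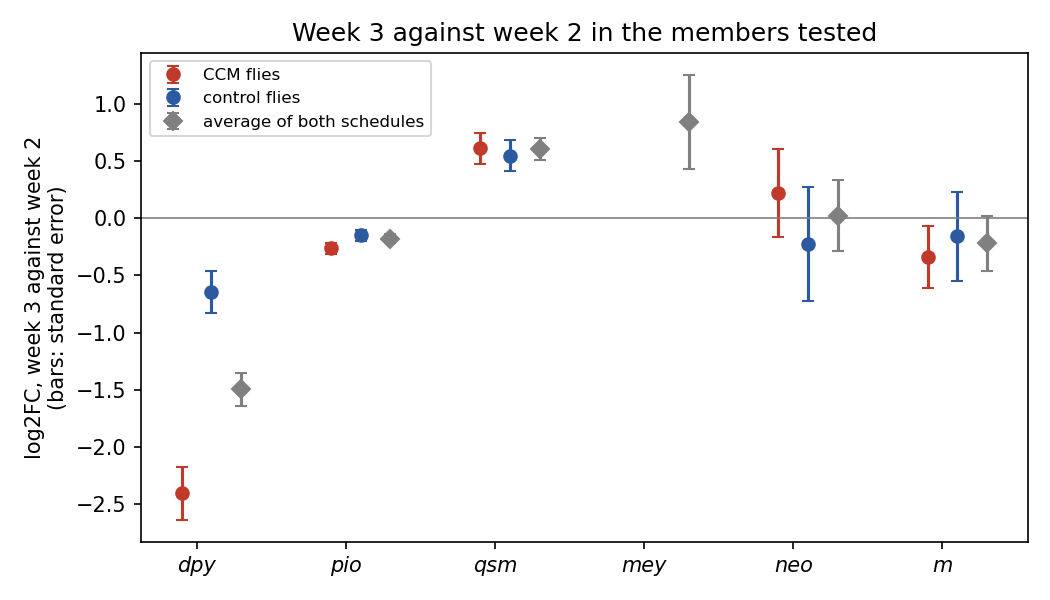
log2FC of week 3 against week 2 (y axis; bars are standard errors over replicates) in CCM flies, control flies and the average of both, for the 6 members that passed the filter in the fit of all 12 samples. qsm is above 0 (0.61, 0.55 and 0.61), pio (−0.27, −0.15 and −0.18) and dpy (−2.40, −0.65 and −1.5) are below, and of these 3 fits mey passed the filter in that of all 12 samples alone.

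dyl had 4, 5 and 3 counts in week 3 CCM flies, against 6, 24 and 7 in week 2 CCM flies, and 2, 3 and 2 counts in week 3 controls, against 11, 7 and 4 in week 2 controls. The counts did not overlap between weeks on either schedule. Averaged over schedules, dyl was called lower at week 3 in DESeq2 (log2FC −1.36, adjusted p = 0.032) and in edgeR without the filter (−1.33, adjusted p = 0.025). It passed the filter in 10 of the 12 edgeR fits that left out 1 sample, with log2FC of −1.51 to −1.27, and was called in these. Those fits were the ones that kept its highest counts, 24 and 11, which are both of week 2. Its entry thus depended on high week 2 values, so these calls are a description and no separate support.

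The members did not share 1 pattern over the 12 samples. As a description over samples that share groups, the correlation of log2 CPM with dpy was 0.79 for pio, 0.22 for m, −0.07 for neo, −0.45 for mey and −0.76 for qsm. The 5 features most like dpy by this measure, of 12529, were CG43102 (r = 0.98), Pde6, a cyclic nucleotide phosphodiesterase gene (0.96), FBgn0036125, for which the annotation gave no symbol (0.96), nrm (0.96) and dally, a cell surface proteoglycan gene (0.96). The exonic lengths of the 4 annotated ones were 12189, 6535, 9946 and 4483 bases.

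Of 3 further ZP domain genes (dy, nompA and zye), only nompA, which links sensory neurons to the cuticle, passed the filter. It was at 2.41 to 2.89 CPM in week 3 CCM flies, against 1.14 to 1.74 in week 2 CCM flies, and rose there by a log2FC of 0.89 ± 0.20 (adjusted p = 0.027, edgeR), or by 1.63 with length offsets (adjusted p = 0.0063). In control flies its log2FC was 0.36 ± 0.49 (adjusted p = 0.54), and the interaction was 0.58 ± 0.53 (adjusted p = 0.93). For CCM against control its log2FC was 0.04 at week 2 and 0.61 at week 3, neither of them called in edgeR.

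Dumpy anchors tendon cells, and 10 genes of tendon and muscle attachment were examined beside it. None was called by edgeR for CCM against control at either week or for the interaction, where all 10 values were negative with a median of −0.35, against 0.01 over all features. With length offsets 3 of the 10 interaction values were positive and the median was −0.088. In the fit paired by replicate letter, shot, the spectraplakin of tendon cells, was lower in CCM flies at week 3 (−0.75, adjusted p = 0.030), while that fit called 9.34% of all features. Without pairing, shot was at −0.76 in edgeR (adjusted p = 0.18, not called). In DESeq2 it was called at −0.74 (adjusted p = 0.0014), where 2.49% of all features were called. With length offsets and no pairing the value of shot was −0.18 (adjusted p = 0.58), not called in edgeR. In the average of both schedules 7 of 10 were lower and 1 was higher at week 3, against 32.7% lower and 33.8% higher among all features (median −0.49, against −0.002 over all features). rhea (talin) fell by 1.21 on the log2 scale, kon fell by 1.47, shot fell by 1.07 and mew, an integrin subunit, fell by 0.53, while Tsp (thrombospondin) rose by 0.50. With length offsets the split of calls was 5 higher and 2 lower (median 0.12), and of these genes kon was still lower (−0.56), Tsp still higher (1.05) and shot was higher (0.35).

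Chitin stiffens the matrix that ZP proteins line. Of 10 chitin matrix genes, 0 were called by edgeR for CCM against control at week 2 or week 3 (9 tested), and in the average of both schedules 5 were higher and 3 lower at week 3 (median 0.20), against 33.8% higher and 32.7% lower among all features. Gasp, a chitin-binding protein of trachea, rose by 0.94, verm, a chitin deacetylase, by 0.74, rtv by 0.72 and mmy, which makes the chitin precursor, by 0.35. With length offsets 6 were higher and 2 lower (median 0.31). The transcription factor gene ovo, which activates denticle ZP genes in the embryo and also acts in the female germline, fell by 1.53 (adjusted p = 0.00047), or by 0.63 with length offsets (adjusted p = 0.021), and the matriptase gene Np had 0 to 1 counts and was not tested.

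Of 9 clock and light input genes examined beside qsm, 0 were called by edgeR for CCM against control at week 2 or week 3 or for the interaction, and the fit paired by replicate letter called 1 higher and 3 lower at week 3, against 9.34% of all features in that fit. Without pairing, DESeq2 called 1 higher and 2 lower at week 3, against 2.49% of all features in that fit. These were per (0.38, adjusted p = 0.046), tim (−0.61, adjusted p = 0.013) and Pdp1 (−0.82, adjusted p = 0.0083). In edgeR with no pairing 0 of 9 were called at week 3, with or without length offsets. There the log2FC without and with offsets was 0.36 and 0.52 for per, −0.62 and −0.34 for tim, and −0.84 and −0.43 for Pdp1. In the average of both schedules 4 were higher and 5 lower at week 3, among them per (0.68), vri (0.63), Clk (−2.14) and tim (−0.60), while 66.5% of all features were called. With length offsets 6 were higher and 2 lower, and tim turned to 0.21.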

How the data were processed

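RNA of whole flies was sequenced in 12 samples. The authors filtered reads, aligned them with STAR to dm6, kept protein-coding genes and counted with MMquant, and deposited whole-number read counts, not normalized, with genes that share reads joined in 1 feature. Members and gene lists were chosen with earlier results of these data known. Members were matched by gene identifier through Ensembl release 115, and no member had a merged feature. The genes named are all members, up to 4 called genes per list by smallest p, and the 5 features most correlated with dpy. Alr and Pdp1 were added after their values were seen.

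Counts were analyzed in R 4.3.3 with edgeR 4.0.16 (filterByExpr, TMM, quasi-likelihood test, Benjamini-Hochberg adjustment over all features tested, threshold 0.1). Each pair of groups was fitted alone (6 samples), and the interaction and the average over schedules on all 12 samples. CPM use TMM-scaled library sizes, log2FC are not shrunken, and standard errors come from the replicates' log2 CPM with a prior count of 0.5. Exonic length is the union of a gene's exons, and length offsets used a lowess curve (span 0.3) for each sample. Replicates of every group differed by more than sampling noise (chi-square per degree of freedom of 18.7 or more), so their spread sets the precision of the abundant members and counting error that of the rare ones.

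The replicate letters come from the sample labels. As a check of pairing, the deviations of same-lettered samples from their group means were correlated over genes. At week 3 all correlations exceeded 0.1 (0.22, 0.56 and 0.52), so these samples were treated as paired in an alternative. The highest correlation between samples of different letters was 0.24 at week 3, above the A pair and below the B and C pairs. It reached 0.44 at week 2, so a value over 0.1 alone does not show pairing. The alternatives were DESeq2 1.42.0, RLE normalization, no filter on low counts, an adjusted p under 0.05 and the replicate block. Further alternatives were length offsets with and without the block, all 12 samples in 1 fit and each replicate left out. Length offsets with lengths over 15000 bases set to 15000 were chosen after seeing the data. The fits were tested on simulated data.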

Additional observations from a re-analysis of the deposited data

Results flagged for a closer look

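The gene dpy was chosen because its CCM effect differed between the weeks in DESeq2, so this difference is a rule of choice and no finding. In edgeR's quasi-likelihood test 0 of 12530 features were called for the interaction. The interaction of schedule and week was −1.73 on the log2 scale in the DESeq2 fit that chose the gene, and this value stands as a description because the same contrast made the choice. The CCM samples lay below the controls at week 3 and overlapped them at week 2. With length offsets the interaction was −0.25 in edgeR, against −1.70 without them.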

How the results depend on the processing

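The precision of nyo, cyr, dyl and mey is limited by their counts, which do not exceed 24 in any sample. Among the log2FC of single genes under alternatives other than leaving out a replicate, 245 kept their direction and side of the threshold, 26 reversed, 5 lost a call and 9 untested values of dpy moved by more than the spread of replicates. With length offsets, length offsets with the replicate block, and offsets with lengths over 15000 bases set to 15000, the number of members called was 1 in each in CCM flies, week 3 against week 2 (2 without offsets), and 2 in each in the average of both schedules (4 without offsets). In the same order of settings, pio turned to 0.084, 0.088 and 0.084 in control flies, week 3 against week 2, to 0.094, 0.099 and 0.094 in CCM flies, to 0.015, 0.018 and 0.015 for the interaction and to 0.094, 0.096 and 0.094 in the average. m turned to 0.038, 0.059 and 0.038 in control flies and to 0.0071, 0.011 and 0.0067 in the average. dpy turned to 0.22, 0.33 and 0.13 in control flies, to −0.0018 at week 2 with length offsets alone, to 0.012 in CCM flies with offsets and the replicate block, and to 0.099 and 0.15 in the average with the first and the second of these settings. The replicate block alone turned neo to −0.026 in the average of both schedules and ended the call of mey there (0.81, adjusted p = 0.105 in edgeR), leaving 3 members called, and it changed no other member's call. Outside week 3 the mean correlations of same-lettered samples gave no sign of pairing (−0.06 at week 2, 0.01 between weeks in control flies and −0.24 in CCM flies). Leaving out 1 replicate at a time gave 0 to 1 members called between weeks in control flies, 1 to 2 in CCM flies and 3 to 5 in the average (with dyl where it passed the filter), and 15 values of single genes lost a call. Reversals under it were confined to the 3 tested genes with few counts, whose log2FC ranged between −0.29 and 0.27 (m, week 2), −0.35 and 0.01 (m, week 3), −0.43 and 0.073 (m, between weeks in control flies), −0.37 and 0.17 (m, interaction), −0.16 and 0.62 (neo, week 3), −0.65 and 0.10 (neo, between weeks in control flies), −0.072 and 0.51 (neo, between weeks in CCM flies), −0.19 and 0.19 (neo, average), −0.022 and 1.06 (mey, week 3), and −0.36 and 0.74 (mey, interaction). No member has a merged feature. A fit restricted to features of a single gene was not run, so its effect on the values was not tested. The offsets change the values by their own construction, and the cause of the other changes was not tested.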
